A study of Mus musculus with 24 samples.

Results

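The liver transcripts described here belong to 34 genes of the unfolded protein response and of protein folding in the endoplasmic reticulum (ER). They were chosen by gene symbol, and all 34 were measured among 18193 genes on the array. The members fall into 14 ER chaperones and folding enzymes, 7 genes of ER-associated degradation, 8 genes of the ATF4 branch and 5 sensors and other transcription factors. The livers came from 24 male BALB/c mice, bought at an age of 6 weeks, kept for a week on a nonpurified diet and then fed a purified diet for 14 days. The control mice ate AIN93G, a standard purified rodent diet, and the remaining mice ate AIN93G with 0.1%, 0.5% or 1.0% quercetin, a flavonol of many plant foods, with 6 mice in each of the 4 groups. Each mouse gave 1 Affymetrix array hybridised with biotin-labelled cRNA from total liver RNA. The mice were housed 3 to a cage and lived in darkness during the daytime hours. The labels do not tie mice to cages, so the tests treat the 6 mice of a group as independent, which cage mates may not be.

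The ER folds and modifies proteins bound for secretion, and hepatocytes secrete most of the plasma proteins. When unfolded proteins gather in the ER, sensors in its membrane signal to the nucleus: IRE1 (Ern1) splices the mRNA of the transcription factor XBP1, PERK (Eif2ak3) slows translation while ATF4 is made, and ATF6 is cut to release a transcription factor. XBP1 and ATF6 raise chaperones and degradation genes, whereas ATF4 raises genes of amino acid supply and of stress-linked cell death. The intensities give total transcript per gene and do not separate the spliced from the unspliced form of Xbp1.

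All levels below are log2(intensity + 1) after quantile normalization between arrays, so a difference of 1 is a doubling on that scale, and low values understate a fold. Differences carry the standard error (SE) of limma over the 24 arrays, and a gene was called at a Benjamini-Hochberg adjusted p under 0.05 over all 18193 genes. Array medians of the deposited intensities ran from 4.78 to 7.58. Along the first principal component, which held 9.15% of the variance, 4 arrays stood apart: replicates 4 and 6 of the 0.5% group and replicates 4 and 5 of the 1.0% group. Replicate 1 of the 0.5% group and replicate 6 of the 1.0% group had high 18S control signal, and replicate 2 of the 1.0% group stood apart on the second component. As a check of the labelled tissue, the summed intensity of 5 hepatocyte genes spanned 31533 to 33868 in the 1.0% group, 31950 to 34694 in the 0.5% group and 32345 to 35288 in control. In the 0.1% group it spanned 33328.5 to 35302. Of the pancreatic acinar markers, which belong to another secretory tissue, 6 of 8 were measured, and their sum ran from 364 to 609 at 1.0% and from 494 to 580 in control. At 0.1% their sum ran from 445 to 584 and at 0.5% from 480 to 599. The plasma cell and B cell markers summed to between 45.3 and 61.5 at 1.0% and between 36.2 and 62.0 in control. At 0.1% they summed to between 41.9 and 61.6 and at 0.5% to between 47.4 and 61.4. The neutrophil markers summed to between 60.2 and 320 at 0.5% and between 60.7 and 138 at 1.0%. Their sum ran from 58.1 to 79.1 at 0.1% and from 45.5 to 73.6 in control. At 0.5%, 4 of these 6 genes lay above control and 2 below (46.6% of all genes lay above). Of the 4 above, 3 had an unadjusted limma p under 0.05 (3.74% of all genes in this direction). All 6 lay above control at 1.0% (48.4% of all genes did) and at 0.1% (52.3%). Of the cholangiocyte markers 4 of 5 were measured, and all 4 lay below control at 0.1% (47.7% of all genes did). At 0.5% against 0.1%, 3 of these were higher and 1 lower, and 1 of 6 stellate cell markers was higher and 5 lower (45.3% of all genes were higher). The part of these cell types in the results below was not tested. In whole liver, fewer cells of a type and less RNA per cell cannot be told apart.

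Herpud1 was the only member called in any comparison. It encodes an ER membrane protein that brings misfolded proteins to the degradation complex, and it was higher at 0.5% than at 0.1% quercetin, where its mean lay below control. Of the 34 members 1 was called between 0.5% and 0.1%, against 0.214% of all genes, and 1 in the test of any difference among the 4 groups, against 0.181%. No member was called at 1.0% against control (0.022% of all genes), at 0.5% against control (0.0165%), at 0.1% against control (0%), at 1.0% against 0.1% (0.253%), at 1.0% against 0.5% (0.022%) or for the slope over dose (0.0989%).

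Below that threshold, most members had means above control at 0.5% and below it at 0.1% and 1.0%. At 0.5%, 25 of 34 members lay above control with a median difference of 0.17, where 46.6% of all genes lay above and their median difference was -0.02. At 0.1%, 23 members lay below control with a median of -0.09, against 47.7% of all genes below and a median of 0.01. At 1.0%, 23 lay below control as well, with a median of -0.07 against -0.01 for all genes, of which 51.6% lay below. These 3 comparisons share the 6 control arrays. Left unnormalized, the arrays had all-gene medians of 0.11 at 0.1%, 0.15 at 0.5% and 0.05 at 1.0% relative to control, and the members then stood 16 above and 18 below at 0.1%, 33 above and 1 below at 0.5% and 13 above and 21 below at 1.0%. An unadjusted limma p under 0.05 was found for 8 members at 1.0% against control (8.92% of all genes), for 5 at 0.5%, all above control (3.74% of all genes were above at this threshold), and for 1 at 0.1%, Herpud1, which lay below (2.35%).

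Between the doses the members spread further. For 0.5% against 0.1%, 24 of 34 members were positive (45.3% of all genes) with a median difference of 0.26 against -0.03 for all genes, and 11 had an unadjusted p under 0.05, all of them positive (4.36% of all genes). The ranges of the 6 mice at 0.5% lay wholly above those at 0.1% for 7 members, namely Herpud1, Syvn1, Hspa5, Creld2, Chac1, Xbp1 and Eif2ak3, where 0.561% of all genes did so. At 1.0% against 0.5%, 29 of 34 members were negative (48.6% of all genes) with a median of -0.20 against 0.01 for all genes, and 9 negative members had an unadjusted p under 0.05 (2.95% of all genes). Without the 2 arrays with high 18S signal, 26 of 34 were negative with a median of -0.17, and 2 negative members had such a p, against 2.81% of all genes. Between 1.0% and 0.1% the members split into 18 above (47.1% of all genes) and 16 below, and 12 had an unadjusted p under 0.05 (9.42%), 7 of them positive (4.21%) and 5 negative (5.21%). Xbp1 was the single member without overlap there (0.517% of all genes).

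**Figure D1:**
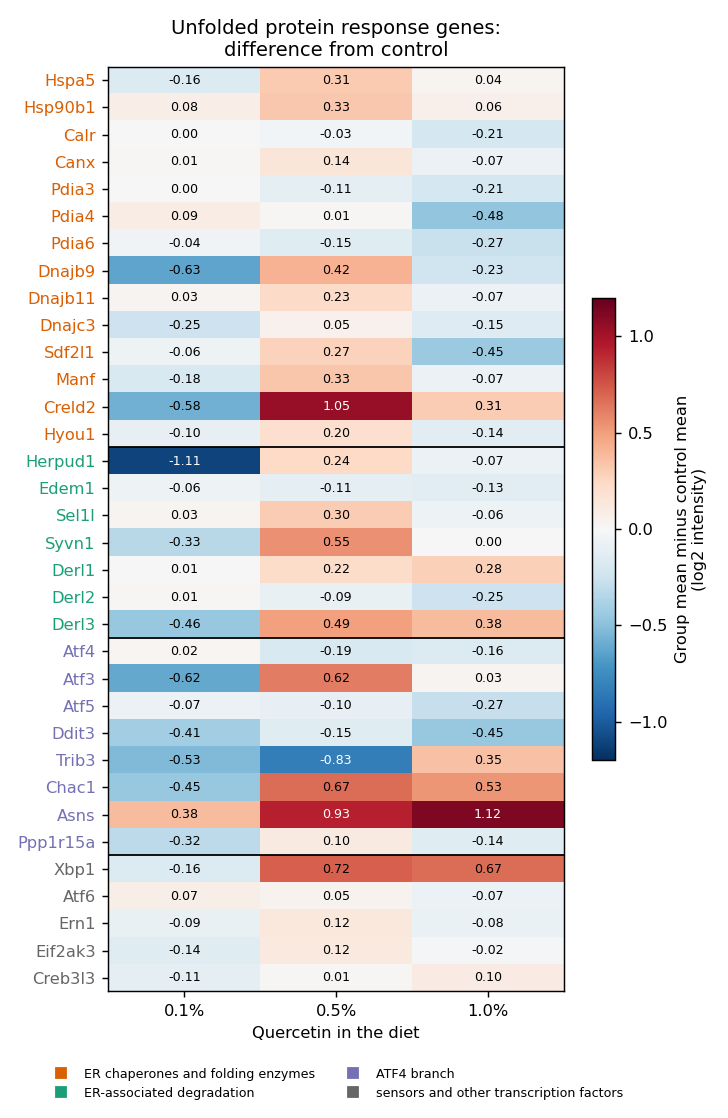
Heat map of the 34 members by class, with the difference of each quercetin group's mean from the control mean in log2 intensity as colour and number. The 0.5% column holds 25 positive values, whereas the 0.1% and 1.0% columns hold 11 each, and the deepest blue cell is Herpud1 at 0.1% (-1.11).

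Among the sensors and other transcription factors, Xbp1 stood highest in the mice on the higher doses. Its level had a lowest, median and highest value of 10.09, 10.28 and 10.63 in control, 9.88, 10.13 and 10.45 at 0.1%, 10.48, 10.89 and 11.64 at 0.5% and 10.51, 10.85 and 11.79 at 1.0%. Every mouse on 0.5% or 1.0% was above every mouse on 0.1%, while a control mouse reached into both higher groups. The difference was 0.88 (SE 0.21, adjusted p = 0.0854) for 0.5% against 0.1%, 0.83 (SE 0.21, adjusted p = 0.105) for 1.0% against 0.1% and 0.67 (SE 0.21, adjusted p = 0.365) for 1.0% against control. Over the dose its slope was 0.84 log2 per 1% quercetin (SE 0.21, adjusted p = 0.0953). All 3 other probe sets of Xbp1 were also positive for 0.5% against 0.1%, between 0.37 and 1.02. Without the 4 arrays apart on the first component, the difference between 1.0% and control was 0.39 (SE 0.14, adjusted p = 0.474).

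The genes of the sensors and of the other factors had smaller differences. Eif2ak3, which encodes PERK, had values of 5.67, 5.73 and 5.97 at 0.5%, above 5.41, 5.52 and 5.65 at 0.1%, with ranges that did not overlap and a difference of 0.26 that did not pass. Its other 2 probe sets split in sign, at -0.10 and 0.23, and were dim, with mean levels of 0.80 and 1.23. Creb3l3, a membrane-bound transcription factor of hepatocytes and enterocytes that is cut like ATF6, had a lowest, median and highest level of 9.55, 9.77 and 9.92 at 1.0% against 9.45, 9.54 and 9.62 at 0.1%, a difference of 0.20 (SE 0.09, adjusted p = 0.46) with overlapping ranges. Atf6 had medians of 6.46 in control, 6.63 at 0.1%, 6.59 at 0.5% and 6.49 at 1.0%, all within the range of the 1.0% mice, 5.97 to 6.89. Its probe sets disagreed between 0.5% and 0.1%, where the one used differed by -0.03. The brighter of the 2 others differed by 0.48 there (limma by probe set, adjusted p = 0.323) and the dimmer by 0.05. Between 1.0% and 0.1% these 2 differed by 0.32 and -0.08, and the one used by -0.15. Ern1 had differences from control of -0.09 at 0.1%, 0.12 at 0.5% and -0.08 at 1.0%, and 1 mouse in each of the higher dose groups exceeded 8. Of the 5 genes in this class none was called, and 1 (Xbp1) had an unadjusted p under 0.05 in the test of any difference (9.49% of all genes).

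The ER chaperones and folding enzymes had the largest median difference of the 4 classes between the higher doses. All 14 had lower means at 1.0% than at 0.5%, with a median difference of -0.29, and 7 of them had an unadjusted p under 0.05 (2.95% of all genes in this direction). Without the 2 arrays with high 18S signal all 14 were still lower, with a median of -0.24, but 1 of them had such a p (2.81% of all genes). After median centring of the arrays 14 of 14 had one (9.32% of all genes), and the median was -0.50. Against control, 11 of 14 lay above at 0.5% with a median of 0.22 (14 of 14 and 0.45 without normalization), 9 lay below at 0.1% with a median of -0.05 (6 of 14 and 0.04 without normalization), and 11 lay below at 1.0% with a median of -0.15. None of these differences was called. The class has a common feature in its promoters. The ER stress response element, ERSE, is the sequence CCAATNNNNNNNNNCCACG bound by NF-Y and ATF6, and a shorter form, ERSE-II, is ATTGGNCCACG. In RefSeq promoters of GRCm38.p6, taken from 250 bases before to 50 bases after each gene's start and searched on both strands, 30 of the 34 members had a window. Of the 12 chaperone windows 7 held ERSE (58.3%), as did 2 of 6 degradation genes, 0 of 8 genes of the ATF4 branch and 0 of 4 sensors and factors, where 0.137% of all 27025 genes in the table held it. ERSE-II was in 2 members against 0.0444% of genes, and UPRE, the element TGACGTGG, was in 0 of 30 members against 0.714%. A match is a description of the letters and not a measured binding site. Each site of the 2 ERSE forms outside Herpud1 is printed here in the direction of the motif, with the motif in capitals and 5 bases on either side, because the members that carry it differed in how they varied.

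Hspa5, chr2:34772025-34772043: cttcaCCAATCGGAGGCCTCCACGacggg

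Hsp90b1, chr10:86705533-86705551: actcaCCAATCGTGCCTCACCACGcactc

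Hsp90b1, chr10:86705638-86705656: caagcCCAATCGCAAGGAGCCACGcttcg

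Calr, chr8:84847075-84847093: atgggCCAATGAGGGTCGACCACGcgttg

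Canx, chr11:50325800-50325818: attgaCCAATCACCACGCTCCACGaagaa

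Creld2, chr15:88819520-88819538: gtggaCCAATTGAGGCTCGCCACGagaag

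Dnajc3, chr14:118937827-118937845: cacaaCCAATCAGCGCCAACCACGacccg

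Pdia6, chr12:17266491-17266509: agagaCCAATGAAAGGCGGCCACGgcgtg

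Syvn1, chr19:6046532-6046550: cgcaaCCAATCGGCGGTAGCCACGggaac

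Derl3, chr10:75893242-75893260: gctagCCAATGGGGAAGTCCCACGgtaga

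Dnajb11 (ERSE-II), chr16:22857852-22857862: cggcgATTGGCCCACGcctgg

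Of the chaperone class, Creld2 had the widest spread. It encodes a small secreted disulfide isomerase-like protein known as an ER stress marker. Its lowest, median and highest levels were 7.81, 8.24 and 10.36 at 0.5% against 6.77, 7.0 and 7.39 at 0.1%, so the groups did not overlap, and the difference was 1.62 (SE 0.38, adjusted p = 0.0796). In control its values were 6.91, 7.47 and 8.61, and the mice on 0.5% lay 1.05 higher on average (SE 0.38, adjusted p = 0.555). At 1.0% the values were 7.18, 7.61 and 8.92, which overlapped all other groups. Dnajb9, a co-chaperone of BiP that also restrains IRE1, had levels of 9.12, 9.57 and 10.69 at 0.5% against 7.92, 8.72 and 9.22 at 0.1%, a difference of 1.05 (SE 0.31, adjusted p = 0.213) with a small overlap. Hspa5, which encodes BiP, the main Hsp70 chaperone of the ER, had values of 11.43, 11.73 and 12.39 at 0.5% against 11.21, 11.32 and 11.42 at 0.1%, a difference of 0.48 (SE 0.16, adjusted p = 0.285) without overlap.

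Several disulfide isomerases and the lectin chaperone calreticulin had their lowest means at 1.0%. Pdia6, a protein disulfide isomerase, had values of 9.90, 10.10 and 10.37 at 1.0% against 10.19, 10.38 and 10.54 in control, and 5 of 6 mice on 1.0% lay below every control mouse. The difference was -0.27 (SE 0.09, adjusted p = 0.365), its slope over dose was -0.27 log2 per 1% quercetin (SE 0.07, adjusted p = 0.15), and its other probe set differed by -0.44. Pdia4, another isomerase, had values of 5.81, 6.26 and 6.50 at 1.0%, against 6.31, 6.92 and 7.13 at 0.1% and 6.49, 6.69 and 7.12 in control. It differed by -0.56 from 0.1% (SE 0.17, adjusted p = 0.22) and by -0.48 from control (SE 0.17, adjusted p = 0.416), but its other probe set went the opposite way against 0.1%, at 0.44. That other probe set was dim, with a mean level of 1.64 against 6.61 for the one used. Calr and Pdia3, whose products act together on glycoproteins, each differed from control by -0.21 at 1.0% (SE 0.08 and 0.10, adjusted p = 0.437 and 0.538). At 0.5% against control, the same 4 genes had differences of 0.01 (Pdia4), -0.03 (Calr), -0.11 (Pdia3) and -0.15 (Pdia6), while Hspa5, Hsp90b1 and Manf had 0.31, 0.33 and 0.33. The other probe set of Hsp90b1, with a mean level of 9.34 against 10.07, differed by 0.02, and the other probe sets of Hspa5 by 0.53 and 0.16. Canx, the membrane-bound partner of calreticulin, was the single member whose mice at 1.0% all lay below those at 0.5% (0.0934% of all genes did), with values of 9.59, 9.71 and 9.81 against 9.85, 9.92 and 9.98. Its difference was -0.21 (SE 0.08, adjusted p = 0.748), and of its other 2 probe sets 1 had the same sign.

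Of the remaining chaperone genes, Sdf2l1, an ER-resident partner of BiP complexes, differed from control by 0.27 at 0.5% and -0.45 at 1.0%, which made its difference between these doses -0.72 (SE 0.23, adjusted p = 0.587). Hyou1, the large exchange factor of BiP, and Dnajb11, a co-chaperone, differed from control by 0.20 and 0.23 at 0.5% and by -0.14 and -0.07 at 1.0%. Dnajc3, an inhibitor of PERK in mouse cells, differed by -0.25 at 0.1%, 0.05 at 0.5% and -0.15 at 1.0%. The 4 other probe sets of Dnajc3, from brightest to dimmest, differed from control by 0.08, 0.02, -0.05 and -0.25 at 0.1%. At 0.5% they differed by 0.26, 0.12, 0.11 and 0.33, and at 1.0% by -0.08, -0.12, 0.03 and -0.11.

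The genes of ER-associated degradation, whose products recognise misfolded proteins and send them back to the cytosol for the proteasome, held the called member. Herpud1 had a lowest, median and highest level of 10.23, 10.86 and 11.39 at 0.5% against 9.17, 9.44 and 9.96 at 0.1%, and no mouse of the 0.5% group reached into the 0.1% range. The rise was 1.35 (SE 0.24, adjusted p = 0.0282), or 2.54-fold, with 6 of 6 mice above the 0.1% range, and its second probe set gave 1.22. Control mice had values of 9.92, 10.58 and 11.26, and mice on 1.0% had 9.91, 10.46 and 11.49, so each of these groups overlapped the top of the 0.1% range by 1 mouse. The difference from control at 0.1% was -1.11 (SE 0.24, unadjusted p = 0.000135, adjusted p = 0.351), and 1.0% lay 1.03 above 0.1% (SE 0.24, adjusted p = 0.0737). The differences from control were 0.24 at 0.5% and -0.07 at 1.0%, both within the spread of the control mice (SD 0.44).

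Between 0.5% and 0.1%, Herpud1 had a difference of 1.26 (adjusted p = 0.0534) without the 4 arrays apart on the first component and of 1.30 (adjusted p = 0.0652) without the 2 with high 18S signal. With 1 array left out at a time it was called in 17 of 24 fits, and the call was lost without any 1 of replicates 1, 2, 3, 5 and 6 of the 0.1% group or replicates 5 and 6 of the 0.5% group. Its difference stayed between 1.24 and 1.47 in these fits.

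The Herpud1 promoter held 2 different elements of those searched, which no other of the 30 windows did. Its window of 300 bases, chr8:94386179-94386478 on the plus strand of GRCm38.p6, is printed with the matches in capitals. The first is CARE, the element TGATGNAA bound by ATF4 with its partners, here on the opposite strand, and the second is ERSE-II.

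Herpud1: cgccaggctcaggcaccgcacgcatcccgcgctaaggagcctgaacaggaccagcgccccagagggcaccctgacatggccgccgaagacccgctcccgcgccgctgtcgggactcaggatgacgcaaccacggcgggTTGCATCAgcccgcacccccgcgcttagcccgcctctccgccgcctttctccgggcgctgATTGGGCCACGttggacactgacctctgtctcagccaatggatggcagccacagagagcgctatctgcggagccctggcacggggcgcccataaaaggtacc

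Syvn1, the ubiquitin ligase HRD1 of the same complex, had values of 7.38, 7.62 and 8.53 at 0.5% against 6.66, 6.94 and 7.08 at 0.1%. The ranges did not overlap, the difference of 0.88 (SE 0.19, adjusted p = 0.0574) missed the threshold, and its other probe set gave 0.74. Control mice spanned 6.90 to 7.69 and mice on 1.0% 6.85 to 7.70. Sel1l, the adaptor that holds HRD1, had values of 7.12, 7.50 and 7.63 at 1.0% against 7.46, 7.78 and 8.11 at 0.5%, a difference of -0.36 (SE 0.12, adjusted p = 0.616), and its 4 other probe sets were negative as well. Derl3, a channel protein of the complex, had widely scattered values, with 5.23, 6.07 and 6.50 at 0.5% against 4.41, 4.74 and 6.63 at 0.1% and a difference of 0.95 (SE 0.34, adjusted p = 0.319) between overlapping groups. At 1.0% against control, Derl1 and Derl2 had opposite signs, 0.28 and -0.25 (adjusted p = 0.538 and 0.449), and 0 of the 3 other probe sets of Derl1 had its sign. Edem1, which marks glycoproteins for degradation, had differences from control of -0.06 at 0.1%, -0.11 at 0.5% and -0.13 at 1.0%. The other probe set of Edem1, with a mean level of 7.58 against 8.42, differed by 0.00, 0.16 and -0.10 at these doses. Of the 7 genes in the class, 5 were positive for 0.5% against 0.1% (45.3% of all genes), 4 of them with an unadjusted p under 0.05 (4.36%). Sel1l was among these 4, but its 4 other probe sets had differences of -0.01, 0.03, 0.08 and -0.17 in this comparison.

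**Figure D2:**
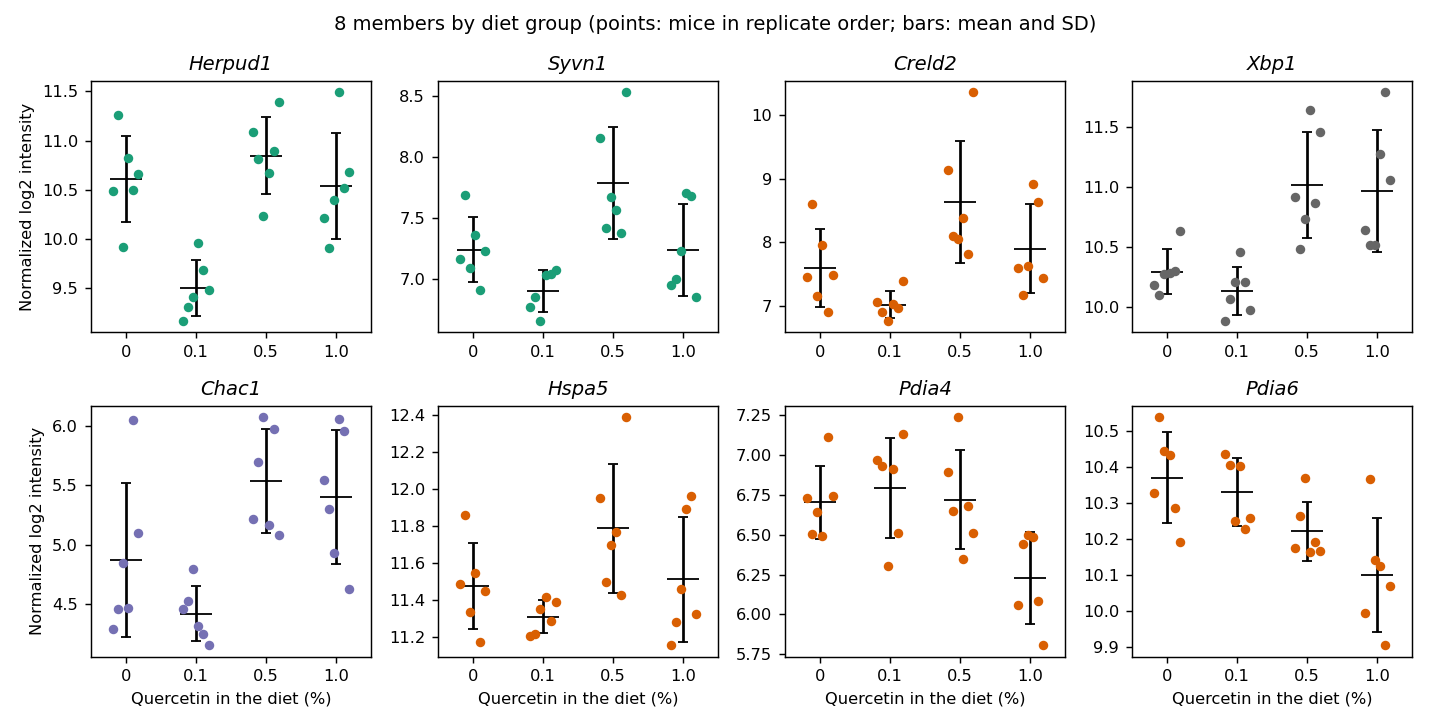
Normalized log2 intensity of 8 members in each mouse, by percent quercetin in the diet (0 is control), with the mean and SD of 6 mice. Herpud1, Syvn1, Creld2, Xbp1, Chac1 and Hspa5 lie higher at 0.5% than at 0.1% without overlap, whereas Pdia4 and Pdia6 have their lowest means at 1.0%.

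The genes of the ATF4 branch differed from control in both directions. At 0.5% against control 4 of 8 lay above and 4 below, with a median difference of 0.00 (7 above, 1 below and 0.21 without normalization), at 0.1% 6 lay below with a median of -0.37, and at 1.0% 4 lay above with a median of -0.05. None was called in any comparison. Promoter windows of 4 of the 8 held CARE, as did 4.51% of all genes, and these sites are those of the 4 members described next, printed in the motif's direction with the motif in capitals.

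Chac1, chr2:119351049-119351056: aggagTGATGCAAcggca

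Atf3, chr1:191183436-191183443: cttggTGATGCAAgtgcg

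Trib3, chr2:152344039-152344046: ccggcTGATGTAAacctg

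Asns, chr6:7693225-7693232: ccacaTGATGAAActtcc

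All 4 carried the motif, and all 4 had positive differences between 1.0% and 0.1% (47.1% of all genes did). These were 0.98 for Chac1, 0.65 for Atf3, 0.88 for Trib3 and 0.74 for Asns. At 0.5% against control, Trib3 differed by -0.83, whereas Chac1, Atf3 and Asns differed by 0.67, 0.62 and 0.93. Chac1, an enzyme that breaks down glutathione, had values of 5.08, 5.46 and 6.07 at 0.5% and 4.63, 5.42 and 6.05 at 1.0%, against 4.15, 4.39 and 4.80 at 0.1%. Mice on 0.5% all lay above those on 0.1%, with a difference of 1.12 (SE 0.28, adjusted p = 0.115), and 1.0% lay 0.98 above 0.1% (SE 0.28, adjusted p = 0.176). In control the values were 4.29, 4.66 and 6.05, so 1 control mouse was as high as the highest mouse on 1.0%. Atf3, a stress-induced repressor, had values of 2.45, 3.92 and 5.15 at 0.5% against 1.39, 2.84 and 3.62 at 0.1%, a difference of 1.23 (SE 0.37, adjusted p = 0.222) between overlapping groups. Trib3, a pseudokinase that holds back ATF4 and AKT, had its lowest mean at 0.5%. Its values were 3.82, 5.08 and 5.64 at 1.0% against 1.26, 3.95 and 4.90 at 0.5%, a difference of 1.18 (SE 0.44, adjusted p = 0.714). The value of 1.26 came from replicate 4, an array apart on the first component, and the other mice on 0.5% had 3.52 to 4.90. The other probe set of Trib3, with a mean level of 4.16 against 4.30, differed by 1.202 between 1.0% and 0.5% (limma by probe set, adjusted p = 0.35). Between 1.0% and 0.1% that probe set differed by 1.16 (adjusted p = 0.076), and the one used by 0.88 (adjusted p = 0.611). Between 1.0% and control the 2 differed by 0.79 and 0.35 (adjusted p = 0.431 and 0.889). The other probe set differed from control by -0.42 at 0.5% and -0.38 at 0.1%, and the one used by -0.83 and -0.53. Asns, asparagine synthetase, had values of 1.30, 3.61 and 3.81 at 1.0% against 0.78, 2.03 and 3.69 in control. The difference was 1.12 (SE 0.49, adjusted p = 0.507) between overlapping groups. The lowest mouse on 1.0% lay in the lower part of the control range, and the median at 1.0% was below the highest control mouse. Asns and Atf3 were dim, at percentiles 38.7 and 46.2 of all genes by mean level over the arrays.

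Ddit3, the pro-apoptotic factor CHOP, had differences from control of -0.41 at 0.1%, -0.15 at 0.5% and -0.45 at 1.0%. Ppp1r15a, the GADD34 subunit that restores translation, differed by -0.32, 0.10 and -0.14 at the same doses. The transcripts of Atf4 itself and of Atf5 differed from control by -0.16 and -0.27 at 1.0%, and neither had an unadjusted p under 0.05 in any comparison.

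Mouse by mouse, the class levels spread widely within groups, at 1.0% as well as at 0.5%. The level of a class in an array is the mean over its genes of the difference from the control mean. For the 14 chaperones it had a lowest, median and highest value of -0.20, -0.02 and 0.30 in control, -0.20, -0.12 and -0.04 at 0.1%, -0.09, 0.16 and 0.67 at 0.5% and -0.38, -0.23 and 0.28 at 1.0%. All mice on 0.1% were negative, 5 of 6 on 0.5% were positive, and at 1.0% the only positive mice were replicates 4 and 5, which are among the arrays apart. The degradation class was positive in all 6 mice on 0.5%, between 0.04 and 0.56, and negative in 5 of 6 on 0.1%. The ATF4 branch overlapped in all groups, with medians of 0.01 in control, -0.25 at 0.1%, 0.17 at 0.5% and 0.09 at 1.0%. Without the 4 arrays apart, the chaperone median was 0.15 at 0.5% against control, with 10 of 14 above, and -0.24 at 1.0% against control, with 14 of 14 below. In that fit 8 of the 14 at 1.0% had an unadjusted p under 0.05, where 3.91% of all genes did in this direction.

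Cytosolic and mitochondrial heat shock genes, of which 15 of 16 were measured, had high levels in many of the same arrays. Their class level ran from -0.13 to 1.32 at 0.5% and from -0.59 to 0.78 at 1.0%, against -0.57 to -0.17 at 0.1% and -0.47 to 1.12 in control. All 15 had higher means at 0.5% than at 0.1% (45.3% of all genes did), with a median difference of 0.92. Of them 13 had an unadjusted p under 0.05 (4.36% of all genes in this direction), and 1, Hspa8, was called (1.09, adjusted p = 0.0424; 0.214% of all genes were called). Control replicate 2 had the highest level of both classes among controls, at 0.30 for the ER chaperones and 1.12 for the heat shock genes. The part of the heat shock genes in the members' differences was not tested.

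**Figure D3:**
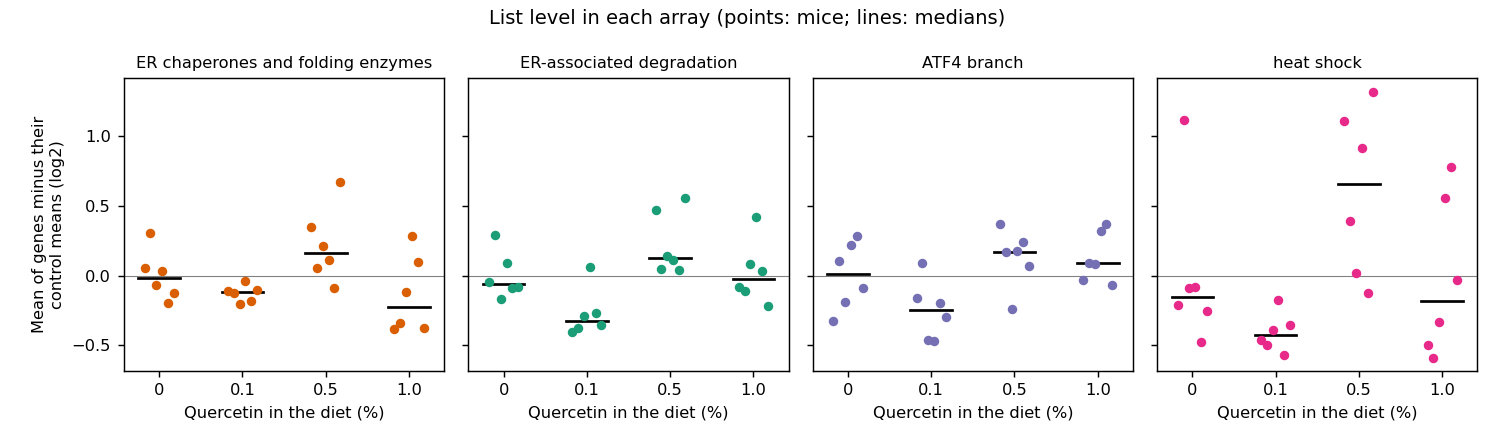
Level of 3 member classes and of the heat shock genes in each array, as the mean over genes of log2 intensity minus the control mean, by percent quercetin (0 is control), with a line at the median of 6 mice. In the chaperone panel all mice on 0.1% lie below 0, and the highest point of the 0.5% group is at 0.67.

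Among mice on the same diet, most chaperones varied with Hspa5. After each group's mean was removed, Pearson's r with Hspa5 over the 24 arrays was 0.94 for Syvn1 (Spearman rho 0.90), 0.94 for Creld2 (0.89), 0.89 for Manf (0.83), 0.85 for Hyou1 (0.82), 0.84 for Dnajb11 (0.71) and 0.81 for Dnajb9 (0.81). Each of these 6 had a permutation p of 1e-05 for r, the smallest that 100000 permutations can give, and an adjusted p of 5.5e-05 over the 33 relations computed, and without the 2 arrays farthest from the Hspa5 median r was between 0.75 and 0.91. By class, the median r was 0.74 for the chaperones, 0.46 for the degradation genes and 0.15 for the ATF4 branch. With Benjamini-Hochberg adjustment over the 33 relations, permutation p-values under 0.05 were found for 16 positive relations, of which 9 were chaperones and 0 were genes of the ATF4 branch, and for 2 negative ones. An r of at least 0.5 was found for 14 of 33 members (42.4%), against 4.89% of all other genes. The heat shock genes had 14 of 15 at that level, with a median r of 0.81.

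The relations differed in how far they rested on the 4 arrays apart. In the other 20 arrays r was 0.89 for Syvn1, 0.88 for Manf and 0.86 for Creld2, whereas it was 0.04 for Xbp1, which had 0.58 over all arrays (permutation p = 0.00253, adjusted p = 0.00596; 0.38 without the 2 farthest arrays), and 0.31 for Dnajc3, which had 0.74. Creb3l3, at -0.68 over all arrays (permutation p = 0.00017, adjusted p = 0.000623, rho -0.49), and Atf6, at -0.48 (permutation p = 0.0183, adjusted p = 0.0355, rho -0.41), were the 2 negative relations past the threshold. They had -0.23 and -0.17 in the 20 arrays, and 0.15 and 0.05 over all arrays without normalization, where 0 negative relations passed. The relation of Atf6 rests on the 1 probe set used, and its 2 others were not tested for it. In the 20 arrays, Chac1 had -0.67 (permutation p = 0.00153, adjusted p = 0.0101, rho -0.64), against -0.19 over all 24. Trib3 had -0.53 there (permutation p = 0.0149, adjusted p = 0.041, rho -0.59), against -0.45 over all 24 (permutation p = 0.0291, adjusted p = 0.0505), where its rho of -0.61 did pass (permutation p = 0.00177, adjusted p = 0.00531). Without normalization Chac1 had 0.15 and Trib3 -0.24. An r of at least 0.5 was found in the 20 arrays for 11 of 33 members (33.3%) and for 2.42% of all other genes. Pdia4 and Pdia6, which had their lowest means at 1.0%, showed little relation, with r of -0.13 each over all arrays. Members with an ERSE printed above were found across this range: Creld2 and Syvn1 at 0.94, Hsp90b1 at 0.78, Canx at 0.52, Calr at 0.28 and Pdia6 at -0.13.

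**Figure D4:**
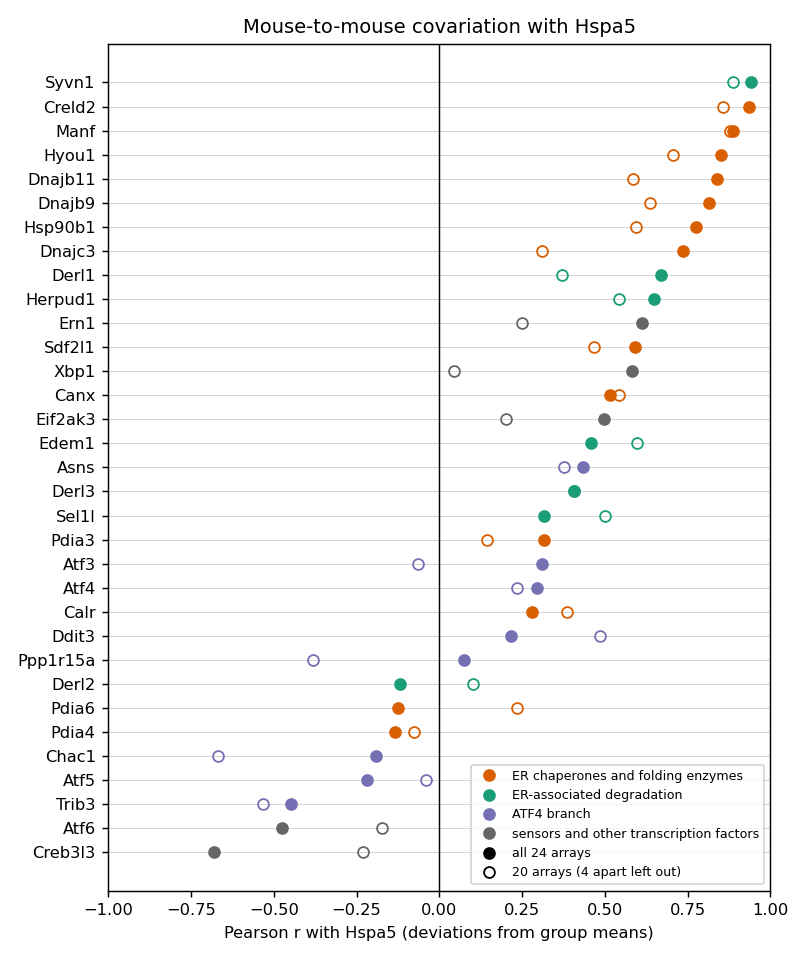
Pearson's r of each of 33 members with Hspa5 after removal of the group means, over all 24 arrays (filled) and over the 20 arrays without the 4 apart (open), coloured by class. Syvn1, Creld2 and Manf keep both points above 0.8, whereas Xbp1 has 0.58 and 0.04.

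Beyond the 34 members, a wider list of 54 genes of ER translocation, folding, degradation and the ATF4 response had 51 measured, and 0 were called in limma in any comparison. At 0.5% against 0.1%, 29 of them lay above and 22 below, with a median of 0.02, and 6 of 51 (11.8%) had an unadjusted p under 0.05, as did 10.1% of all genes and 11 of the 34 members. The smallest p over groups belonged to Cebpb, a transcription factor of the liver's stress and acute phase responses, with values of 8.08, 8.53 and 9.95 at 0.5% against 7.16, 7.52 and 7.86 at 0.1%, a difference of 1.39 (SE 0.31, adjusted p = 0.0609) without overlap. Uggt1, which tags unfolded glycoproteins for another round of folding, differed by -0.36 between 1.0% and 0.1% (SE 0.11, adjusted p = 0.23). Creb3l2, a membrane-bound factor related to ATF6, and Nucb2, a calcium-binding protein, differed by 0.74 and 0.78 between 0.5% and 0.1% (adjusted p = 0.284 and 0.336).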

How the data were processed

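Liver RNA of 24 mice was hybridised to 1 Affymetrix array each, per the labels' protocols. The authors deposited 1 table of intensity values on a linear scale for 45101 probe sets. How the scanned probes were corrected and summarised is not given in the sources used here. The deposited intensities were turned into log2 values as log2(intensity + 1) and quantile-normalized between arrays, since array medians differed. Probe sets with 1 gene symbol in the platform annotation (34945) were used, 932 with several and 9160 not listed were left out, and each gene was represented by its brightest probe set over 24 arrays. Gene IDs of 34741 of them were found in RefSeq's table for GRCm38.p6. All 24 arrays entered 1 fit in limma 3.58.1, run in R 4.3.3, and tests were two-sided after eBayes. P-values were adjusted over 18193 genes. The limma p-values set a difference or slope against the spread between mice.

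The members and all lists were chosen with earlier results of these data known. Members described in full are those called in any comparison and the 4 of each class with the smallest p of the test over groups. Others are named by class, and Hspa5, Canx, Calr and Pdia3 were given more room after their values were seen. Correlations used residuals from group means and 100000 permutations of these residuals over all arrays, not within groups. The fits were tested on simulated data. Motifs were searched as exact letters. Protein sequences were not analysed here.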

Additional observations from a re-analysis of the deposited data

Results flagged for a closer look

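Of 136 sets of 6 mice examined (34 members in 4 groups), 1 held an array far from the others, where chance alone gives about 1 in 20. Asns in replicate 1 of the 1.0% group had a level of 1.30 on the log2 scale, and the nearest of the other 5 mice had 3.26, a gap that took 0.782 of the range of the group. Without that array the Asns difference between 1.0% and control was 1.51 (limma, adjusted p = 0.255) against 1.12 with it. By mean level Asns was dim, at percentile 38.7 of all genes.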

How the results depend on the processing

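Counts of members called are those of limma at an adjusted p under 0.05. Between 0.5% and 0.1% the count was 1, and it was 3 with arrays centred on their medians, 4 with a pseudocount of 16, 4 without the dimmest genes of the table, 3 with a trended and robust eBayes and 2 with array weights, while it was 0 without the 4 arrays apart on the first principal component and 0 without the 2 arrays with high 18S signal. Herpud1 was called under each alternative of this comparison except the last 2, and where the count was higher Syvn1, Creld2, Xbp1 or Chac1 were called with it. For any difference among the groups the count was 1, and it was 2 with a pseudocount of 16, 2 without the dimmest genes and 0 without normalization, with median centring, without the 4 arrays and without the 2 arrays. Between 1.0% and 0.1% the count of 0 was 2 with a pseudocount of 16 (Herpud1 and Xbp1), 1 without the dimmest genes and 1 without the array apart on the second component (Herpud1 in both). The slope over dose called 1 member with a pseudocount of 16 (Xbp1) and 1 with a trended and robust eBayes (Pdia6), against 0. Leaving out the 2 arrays with high 18S signal or the array apart on the second component was chosen after seeing the data.

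Replicate numbers did not pair the mice: of 36 same-numbered pairs of deviations 1 had r over 0.1, and r ran from -0.06 to 0.11. With the replicate number as a block the count was 2 for any difference among the groups (Herpud1 and Xbp1) and 1 between 0.5% and 0.1%, and it was 0 in the other comparisons, as without the block. With 1 array left out at a time the count ranged from 0 to 3 between 0.5% and 0.1%, from 0 to 1 between 1.0% and 0.1% (1 without replicate 2 of the 1.0% group), from 0 to 1 for any difference, and it was 0 in all 24 fits of each other comparison. It was 3 without replicate 2 of the 0.5% group or replicate 5 of the 1.0% group. For any difference it was 0 without control replicates 1, 4, 5 or 6, 0.1% replicates 1, 2, 3, 5 or 6, 0.5% replicates 1, 2, 4, 5 or 6, or 1.0% replicate 6, each left out alone.

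Atf6 between 1.0% and 0.1% turned to 0.031 with the mean of all probe sets, from -0.15 with 1 probe set, neither passing. The number of relations with Hspa5 past the threshold was 18, with 12 without the 4 arrays, 22 without normalization and 17 without the 2 arrays with high 18S signal. The cause of these shifts was not tested. With 6 mice in a group and no depth in the files, the number of arrays limits the precision.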
